A study of Mus musculus with 6 samples.

Results

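The question was which transcripts and cell classes differed in left ventricular nuclei between mice with the myosin R403Q mutation (R403Q-CD) and wild-type mice (WT-CD), both on control diet and given in the labels as 12 weeks old. The comparison took 4 of the 6 libraries of the series, namely 2 from R403Q-CD and 2 from WT-CD. Members were the nucleus barcodes of these libraries that held 500 or more UMIs (unique molecular identifiers, each standing for a captured RNA molecule) and 300 or more genes, with mitochondrial transcripts making up no more than 5% of the UMIs. They numbered 10170 and 8027 in WT-CD and 7939 and 7305 in R403Q-CD, and 33441 in all. Counts were summed per library, over all of these nuclei and then within each cell class.

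All mice were male. R403Q-CD mice carried a mutant Myh6 allele, labelled Myh6+/R404Q (R403Q), and WT-CD mice were their wild-type littermates. Both groups ate the same control diet, which held some lard, no sucrose and no drug. The labels also give a starting age and a length of feeding that together exceed the stated age, so the age and the time on diet at sampling are uncertain. The remaining 2 libraries came from mutant mice on that diet with empagliflozin and entered the fits only to help estimate the spread between libraries. Nuclei came from frozen left ventricle, and nuclear RNA stands for a cell only in part. The labels do not say whether the libraries of a group came from different animals, so the p-values measure the spread between libraries, which may be technical. The labels name no batch, and a batch that coincided with genotype cannot be told apart from it.

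Myh6 encodes alpha myosin heavy chain, the main motor of the adult mouse ventricle, and Myh7 the beta form used in the fetal heart. The R403Q substitution lies in the motor head and causes hypertrophic cardiomyopathy in people, and mice with the equivalent allele develop hypertrophy with age. Under load, cardiomyocytes are known to raise natriuretic peptides (Nppa, Nppb), skeletal alpha actin (Acta1) and immediate early genes such as Atf3, while fibroblasts can be activated to lay down collagen.

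The libraries held 38804980 to 43872197 UMIs, and the nuclei kept had median depths of 2805 and 3796 UMIs in WT-CD and 3431 and 4119 in R403Q-CD. Any 2 of the 4 libraries shared 11 to 21 barcodes, as many as 0.287% of a library. Replicates were not copies, since a chi-square test of their counts gave 58.6 per degree of freedom in WT-CD and 8.80 in R403Q-CD. The WT-CD libraries lay further apart than the groups did. Over the 11944 genes with a mean of at least 5 CPM (UMIs scaled to a common library total), the median absolute log2 difference was 0.22 between the WT-CD libraries, 0.08 between the R403Q-CD libraries and 0.15 between libraries of different groups. WT-CD replicate 1 had the lowest median depth of the 4 libraries in all 7 classes tested and the highest share of mitochondrial UMIs (2.38%, against 1.73% to 2.04%).

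The mutated gene was expressed in every library. Over all nuclei, Myh6 (ENSMUSG00000040752) stood at 2182 and 2691 CPM in WT-CD and 3274 and 3187 CPM in R403Q-CD, a log2 difference of 0.41 ± 0.25 (SE, adjusted p = 1.00, edgeR). In cardiomyocyte-like nuclei it stood at 7239 and 10211 CPM in WT-CD and 9399 and 8730 in R403Q-CD, and the groups overlapped. A substitution is not visible in counts per gene, so these values do not check the genotype labels. None of the 10 tested genes on each side of Myh6 in RefSeq order passed the test, and their log2 differences ran from -0.45 (Homez) to 0.31 (Gm31251). Myh7, 2 tested genes away, stood at 146 and 110.4 CPM in WT-CD and 157 and 153 in R403Q-CD. Between the myosin genes lies Mhrt, a noncoding transcript that overlaps Myh7 on the other strand, at 458 to 673 CPM with the groups overlapping.

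Over all nuclei, 0 of 19233 genes (0%) passed an adjusted p under 0.05 in the edgeR quasi-likelihood test. At an unadjusted p under 0.05 there were 836 genes (4.35%), of which 456 were higher in R403Q-CD. DESeq2, run on the same sums, called 65 genes. Both R403Q-CD libraries lay above both WT-CD libraries for 15.5% of genes and below them for 15.9%, which is the background against which non-overlapping genes are read below.

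The smallest p-values over all nuclei belonged to genes that were higher in R403Q-CD. Gm13481, a predicted gene without a known function, stood at 115 and 108 CPM in WT-CD and 336 and 347 in R403Q-CD, with a log2 difference of 1.62 ± 0.14 (SE, adjusted p = 0.0856, edgeR). Cpxm2, a secreted carboxypeptidase-like protein, stood at 1.48 and 1.52 CPM against 5.88 and 6.82. Gm12381 and A330102I10Rik had log2 differences of 1.33 and 1.43. In each of these 4 genes the groups did not overlap, and the adjusted p of the last 3 lay between 0.148 and 0.217. With each class given the same weight in every library, the log2 differences were 1.29 for Gm13481, 1.86 for Cpxm2, 1.03 for Gm12381 and 1.12 for A330102I10Rik.

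Nuclei were assigned to classes by marker genes and are called "-like", since no label types a nucleus. After predicted doublets were removed, 9514 and 7621 nuclei of WT-CD and 7566 and 6955 of R403Q-CD fell into 12 named classes and a cluster of 32 nuclei over all 6 libraries that was led by haemoglobin genes and left unnamed. Cardiomyocyte-like nuclei made up 11.9% (95% Wilson interval 11.3 to 12.6) and 9.41% (8.77 to 10.1) of the WT-CD libraries and 12.9% (12.2 to 13.7) and 14.2% (13.4 to 15.0) of the R403Q-CD libraries. The means were 10.7% ± 1.77 (SD, n = 2) and 13.6% ± 0.923, a difference of 2.89 percentage points with a two-sided exact permutation p of 0.3333, the smallest that 2 libraries against 2 allow. Fibroblast-like nuclei made up 38.7% and 33.8% of WT-CD and 31.5% and 28.4% of R403Q-CD, a difference of -6.33 points (exact permutation p = 0.3333). Pericyte-like nuclei were 12.7% ± 1.26 of WT-CD and 10.4% ± 0.0260 of R403Q-CD (SD, n = 2). The intervals cover counting error only.

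Endothelial-like nuclei made up 17.4% and 30.1% of the WT-CD libraries and 30.6% and 29.3% of the R403Q-CD libraries, so that WT-CD replicate 1 stood alone. Their difference of 6.16 points had an exact permutation p of 0.667 and became -0.159 points without WT-CD replicate 1. The shares of endocardial-like, myeloid-like and lymphatic endothelial-like nuclei overlapped between the groups. Lymphoid-like nuclei were 0.835% ± 0.142 of WT-CD and 1.33% ± 0.0866 of R403Q-CD (SD, n = 2), without overlap. Without the mitochondrial limit they were 1.80% and 0.875% against 1.16% and 1.20%, so that the groups overlapped and the difference turned from 0.491 to -0.156 points. A share falls whenever another rises, and how many cells of a class release an intact nucleus was not measured.

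**Figure D1:**
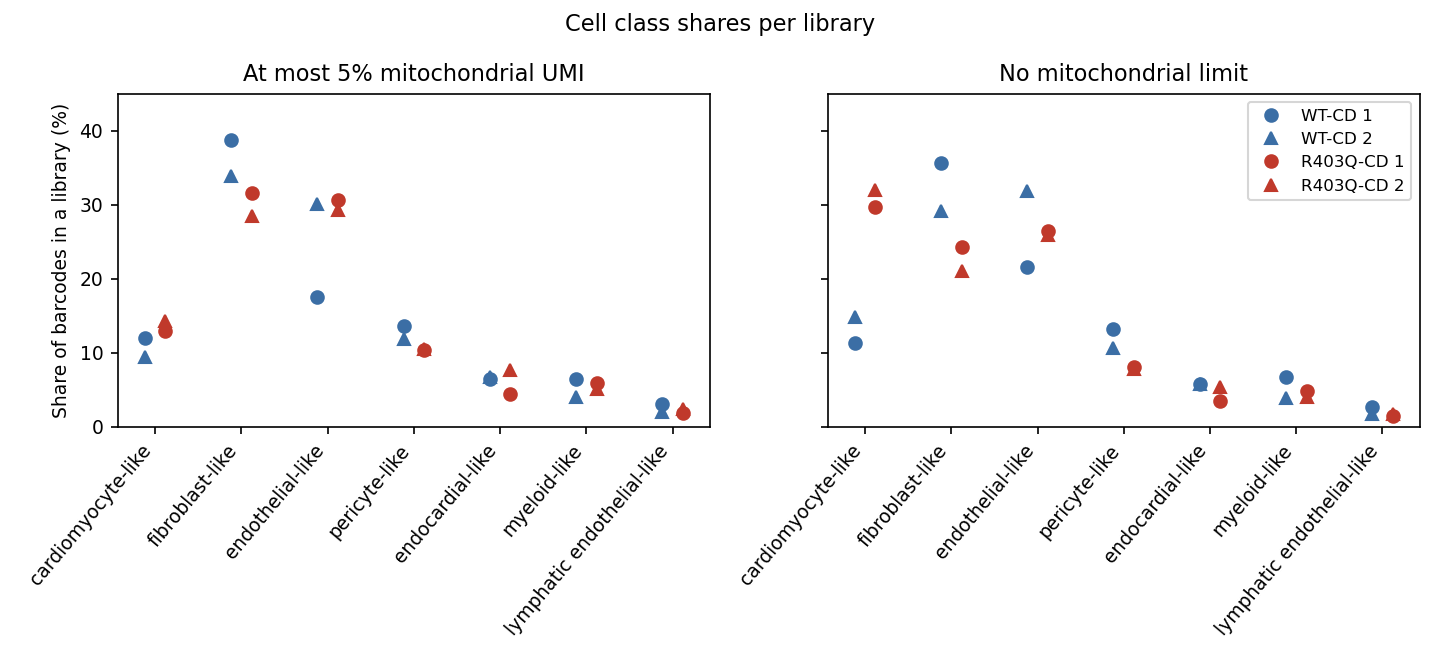
Share of barcodes per class (vertical axis, %) in each of the 4 libraries, with the mitochondrial limit on the left and without it on the right. Each point is a library, circles for replicate 1 and triangles for replicate 2. With the limit the R403Q-CD libraries hold 12.9% and 14.2% cardiomyocyte-like barcodes, and without it 29.7% and 31.9%.

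The mitochondrial limit removed cardiomyocyte-like barcodes unevenly. Barcodes over the limit were given the majority class of their 15 nearest classed nuclei, and 18.5% and 49.2% of cardiomyocyte-like barcodes were over it in WT-CD, against 68.7% and 70.7% in R403Q-CD. They numbered 258 and 694 in WT-CD and 2147 and 2379 in R403Q-CD. These barcodes were shallow, with medians of 715.5 and 844.5 UMIs in WT-CD and 872 and 902 in R403Q-CD, whereas the cardiomyocyte-like nuclei kept had medians of 7234, 12053, 10395 and 12020 UMIs. Without the limit, cardiomyocyte-like barcodes made up 11.2% and 14.9% of WT-CD and 29.7% and 31.9% of R403Q-CD. In fibroblast-like barcodes the share over the limit was 16.4% and 6.56% in WT-CD and 6.55% and 11.2% in R403Q-CD, and the groups overlapped. What these shallow barcodes hold was not tested.

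In cardiomyocyte-like nuclei 14 of 14382 genes (0.0973%) passed the edgeR test, 13 of them higher in R403Q-CD (0.0904%) and 1 lower (0.00695%). Unadjusted, 961 genes (6.68%) had p under 0.05, and DESeq2 called 98 genes, including these 14. The class held 1133 and 717 nuclei in WT-CD and 976 and 988 in R403Q-CD. The main cluster held 82.9% and 84.7% of the class in WT-CD but 77.7% and 57.1% in R403Q-CD. A cluster of lower depth held 15.4% and 14.5% against 18.6% and 31.4%, and a small cluster led by Ryr3, with Nppa and Nppb among its markers, held 1.77% and 0.837% against 3.69% and 11.5%. Without the small cluster 27 genes were called, 13 of the 14 among them, and Nr4a3, Irs2, Kcnc1, Pfkfb1 and Spred2, described below, were then called as well. The count rested on single libraries. It was 4 without R403Q-CD replicate 1 and 0 without R403Q-CD replicate 2, and 22 and 58 without WT-CD replicates 1 and 2, with 3, 0, 8 and 12 of the 14 genes still called. No called gene changed sign in any of these fits.

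Atf3 (ENSMUSG00000026628), a stress-induced transcription factor of the ATF/CREB family, had the smallest p. It stood at 4.91 and 5.04 CPM in WT-CD and 25.5 and 31.6 CPM in R403Q-CD, from 44 and 40 UMIs against 251 and 369. The R403Q-CD mean was 5.74 times the WT-CD mean, with a log2 difference of 2.52 ± 0.24 (SE, adjusted p = 0.0140, edgeR). Its adjusted p ran from 2.85e-22 to 0.133 over 15 alternative settings and was under 0.05 in 14 of them.

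The promoters of Atf3 and Clstn2 are shown because, among the 10 called genes with a promoter in the RefSeq table (GRCm38.p6, 250 bases before to 50 after the start), these were the ones that held the ATF/CREB-type motif TNACGTCA. They lie on the minus strand at chr1:191183284-191183583 and chr9:98033118-98033417 of that build, are written 5′ to 3′ in the direction of the gene, and carry the motif in capitals.
Atf3: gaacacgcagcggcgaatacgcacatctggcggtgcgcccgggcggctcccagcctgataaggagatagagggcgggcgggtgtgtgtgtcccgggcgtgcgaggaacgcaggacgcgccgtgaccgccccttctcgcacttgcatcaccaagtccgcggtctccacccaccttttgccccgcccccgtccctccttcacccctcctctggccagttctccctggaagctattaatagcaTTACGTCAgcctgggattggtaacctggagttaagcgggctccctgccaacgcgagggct
Clstn2: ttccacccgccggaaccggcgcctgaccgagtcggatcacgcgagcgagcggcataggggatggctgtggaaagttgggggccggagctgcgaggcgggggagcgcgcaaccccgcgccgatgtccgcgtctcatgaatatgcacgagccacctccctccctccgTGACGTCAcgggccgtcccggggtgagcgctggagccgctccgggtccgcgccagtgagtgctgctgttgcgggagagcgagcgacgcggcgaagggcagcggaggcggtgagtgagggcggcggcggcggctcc
Searched on both strands, TNACGTCA occurred in 2.93% of 32851 promoters of this length, and its special case TGACGTCA, which Clstn2 holds, in 1.79%. The motif TGANTCA of AP-1 factors, the dimers of Fos and Jun that Atf3 can join, occurred in 2 of the 10 called genes with a promoter and in 7.81% of all promoters. The counts for called genes are of genes, and some of these, such as Adam19, have several promoters. The percentages are of single promoters, so the counts and percentages are not alike and no excess can be read from them. Neither the NR4A motif AAAGGTCA nor the motif TCACGTG occurred in the promoters of called genes, and these letters are in 1.51% and 3.77% of all promoters. A match is a string of letters and no test of binding.

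Among the called genes that code for signalling proteins, Fnip2 was the most abundant. It encodes a partner of folliculin, which relays amino acid supply to mTOR complex 1 and binds AMP kinase. Fnip2 stood at 93.6 and 137 CPM in WT-CD and 400.1 and 346 in R403Q-CD (log2 1.69 ± 0.22 SE, adjusted p = 0.0298, edgeR). Pak5, a p21-activated kinase best known from neurons, stood at 7.36 and 9.58 CPM in WT-CD and 26.3 and 42.5 in R403Q-CD. Rgs7bp, which anchors regulators of G protein signalling to the membrane, stood at 6.58 and 8.19 CPM against 20.03 and 22.1. Rph3al, a Rab effector in secretion, stood at 10.9 and 15.6 CPM against 38.6 and 31.3. Log2 differences of the last 3 genes were 2.03, 1.52 and 1.40, and in each of them both mutant libraries lay above both wild-type libraries.

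Enzymes and secreted proteins formed the next set. Ptgds, the lipocalin-type prostaglandin D synthase, stood at 137 and 165 CPM in WT-CD and 516 and 464 in R403Q-CD (log2 1.70 ± 0.24 SE, adjusted p = 0.0468, edgeR). Adam19, a metalloprotease that sheds membrane proteins and is needed for the developing heart, stood at 42.2 and 73.6 CPM against 178 and 190.5. Cpxm2 stood at 2.79 and 4.16 CPM against 15.3 and 16.5. Ttll7, which adds glutamate chains to tubulin, stood at 12.8 and 10.7 CPM against 29.8 and 31.4. Their adjusted p lay between 0.0250 and 0.0468 (edgeR).

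Gbp6, a guanylate-binding GTPase of an interferon-inducible family with similar members that may share reads, stood at 17.6 and 27.2 CPM in WT-CD and 70.9 and 78.8 in R403Q-CD (log2 1.74 ± 0.20 SE). Of the listed antigen presentation and interferon genes, 0 of 17 passed the test. Tmem178b, a membrane protein, stood at 1.67 and 1.26 CPM against 10.3 and 6.68, a log2 difference of 2.51 ± 0.36 (SE) that was called in 8 of 15 alternative settings. The WT-CD values of Tmem178b rested on 15 and 10 UMIs. In fibroblast-like nuclei Tmem178b stood far higher, at 84.4 and 117 CPM in WT-CD and 101 and 90.6 in R403Q-CD. Its log2 difference was -0.23 over all nuclei and -0.78, without overlap, in myeloid-like nuclei. A330102I10Rik and 5830418P13Rik, loci known only by clone names, had log2 differences of 1.16 and 2.85. The latter stood at 0.893 and 1.26 CPM against 5.19 and 10.2, and it also marks the Ryr3 cluster, of which R403Q-CD replicate 2 held 114 nuclei and the other 3 libraries 6 to 36. Without that cluster its log2 difference was 2.16 and it was not called (adjusted p = 0.116, edgeR). Tmem178b and 5830418P13Rik fell outside the naming rule and were named after their values were seen. A330102I10Rik was named by that rule over all nuclei.

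Clstn2 was the only called gene that was lower in R403Q-CD. It encodes calsyntenin 2, a cadherin-like membrane protein best known from synapses, and stood at 116 and 141 CPM in WT-CD and 53.9 and 53.1 in R403Q-CD. Its log2 difference was -1.26 ± 0.15 (SE, adjusted p = 0.0275, edgeR). Just outside the threshold, all at an adjusted p of 0.0587, were Tmem144, Spred2, Slc24a2, Ugcg and Rapgef5, with log2 differences of 1.14, -1.64, 1.33, 0.97 and -0.99. Kcnc1, a fast voltage-gated potassium channel gene, shared that value, with 0.781 and 1.51 CPM in WT-CD and 6.20 and 5.91 in R403Q-CD. Tmem144, Spred2, Slc24a2, Ugcg and Rapgef5 were named for their place just outside the threshold, after their values were seen.

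**Figure D2:**
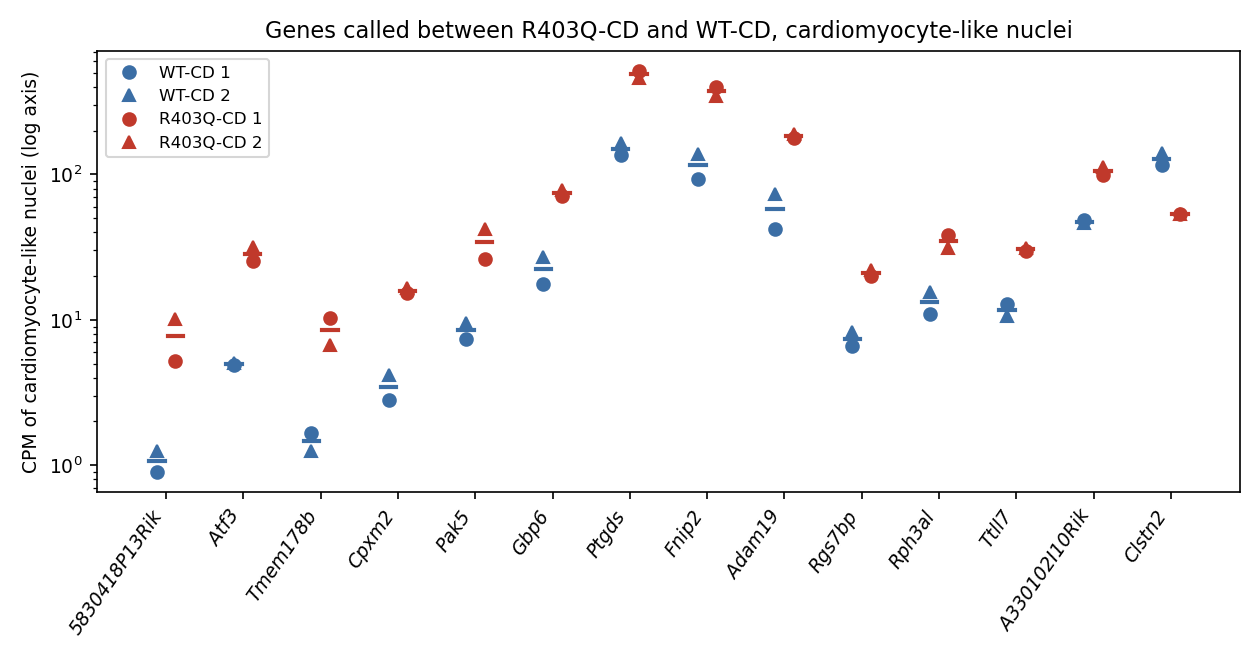
CPM of the 14 called genes in cardiomyocyte-like nuclei (vertical axis, log scale), ordered by log2 difference. Points are libraries and bars group means of n = 2. In 13 genes both red R403Q-CD points lie above both blue WT-CD points, and in Clstn2 (53.9 and 53.1 against 116 and 141 CPM) they lie below.

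Immediate early genes, which cells switch on within minutes to hours of a stimulus, had a median log2 difference of 0.26 in cardiomyocyte-like nuclei, against -0.01 over all genes. Of 19 tested, only Atf3 was called, and 7 were higher without overlap between groups, against 16.8% of all genes in this class. Nr4a3, an orphan nuclear receptor, had a larger difference than Atf3 but also a larger error. It stood at 2.01 and 3.28 CPM in WT-CD and 20.1 and 22.3 in R403Q-CD (log2 3.01 ± 0.52 SE, adjusted p = 0.0786, edgeR). Btg2, an antiproliferative gene, stood at 24.2 and 15.2 CPM against 35.2 and 42.8 (adjusted p = 0.210). Jun stood at 52.8 and 24.1 CPM against 61.9 and 63.5. Fos and Egr1, the usual leaders of this response, lay at or below 1.63 CPM in all 4 libraries and were not called.

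Heat shock chaperones had a median log2 difference of 0.30 in this class. None of 20 was called, 13 were higher without overlap and 2 lower, against 16.8% and 17.1% of all genes. Hsph1, a nucleotide exchange factor for Hsp70, stood at 5.91 and 5.04 CPM in WT-CD and 12.1 and 12.5 in R403Q-CD (log2 1.16 ± 0.23 SE, adjusted p = 0.129, edgeR). Hspa8, the constitutive Hsp70, stood at 44.1 and 46.5 CPM against 92.6 and 70.1 (adjusted p = 0.134). The small heat shock protein gene Cryab stood at 75.8 and 53.7 CPM against 101 and 96.5. The stress-inducible Hspa1a was below 1 CPM in all 4 libraries.

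Cardiac stress genes had a median log2 difference of 0.15, and none of 16 was called. Of these 6 were higher and 1 lower without overlap, against 16.8% and 17.1% of all genes, whereas their summed level was lower in R403Q-CD, at 7648 and 8112 CPM against 8919 and 10019 in WT-CD. Nppa, atrial natriuretic peptide, stood at 59.8 and 36.5 CPM in WT-CD and 142 and 238 in R403Q-CD (log2 1.98 ± 0.54 SE, adjusted p = 0.342, edgeR). Nppb, the B-type peptide, stood at 27.7 and 28.3 CPM against 40.3 and 74.4 (log2 1.04 ± 0.25 SE, adjusted p = 0.241). Acta1 stood at 17.1 and 22.9 CPM against 27.1 and 46.4. In all 3 genes R403Q-CD replicate 2 was the highest library, and it also held the most nuclei of the Ryr3 cluster, which Nppa and Nppb mark. Without that cluster the log2 differences were 1.37 for Nppa and 0.67 for Nppb, and neither was called. Myh7 (490.1 and 393 CPM against 419 and 391) and Ankrd1 (493 and 293 against 231 and 431) overlapped between the groups.

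No listed gene of contraction or ion handling was called. Sarcomere genes had a median log2 difference of 0.07 (0 of 20 called) and calcium handling genes -0.11 (0 of 21 called). Of the calcium handling genes 6 were lower without overlap and 0 higher, against 17.1% and 16.8% of all genes in this class. The pump gene Atp2a2 stood at 4031 and 4252 CPM in WT-CD and 4074 and 4057 in R403Q-CD, and Pln, its inhibitor, at 2633 and 2133 against 2268 and 2133. Cacna1g, the T-type calcium channel, was lower without overlap at 25.9 and 28.3 CPM against 16.4 and 16.4 (log2 -0.72 ± 0.16 SE, adjusted p = 0.190, edgeR). Cacnb2, a subunit of the L-type channel, stood at 2383 and 3169 CPM against 1698 and 1863. Adra1b, the alpha-1B adrenergic receptor, stood at 105 and 177 CPM against 71.2 and 82.2 (log2 -0.87 ± 0.23 SE, adjusted p = 0.301). Potassium channel and sodium handling genes had medians of -0.09 and -0.05.

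No metabolic list had a called member in cardiomyocyte-like nuclei. Fatty acid oxidation genes had a median log2 difference of -0.11 over 29 genes, of which 8 were lower and 4 higher without overlap, against 17.1% and 16.8% of all genes. The sign of this median turned elsewhere, to 0.16 over all nuclei (12 of 30 higher and 1 lower without overlap, against 15.5% and 15.9%), between 0.02 and 0.26 in the other 6 classes tested and 0.19 in cardiomyocyte-like barcodes without the mitochondrial limit. Of the carnitine palmitoyltransferases in that list, which were not compared with each other by a test, Cpt1a stood at 124 and 142 CPM in WT-CD against 87.2 and 81.3 in R403Q-CD (log2 -0.66 ± 0.15 SE, adjusted p = 0.215, edgeR) and the muscle form Cpt1b at 110.1 and 119 against 149 and 146 (log2 0.36 ± 0.15 SE, adjusted p = 0.674). Pyruvate dehydrogenase and TCA cycle genes had a median of 0.04, with 11 of 29 higher and 3 lower without overlap. Branched-chain amino acid breakdown genes had a median of 0.00, with 4 of 23 higher and 8 lower. Glucose uptake and glycolysis genes had a median of 0.08, with 6 of 21 higher and 3 lower, and ketone body genes one of 0.04, with 1 of 6 on each side. Pfkfb1, which sets the level of the glycolytic activator fructose 2,6-bisphosphate, stood at 100.3 and 79.8 CPM against 43.1 and 43.3 (log2 -1.06 ± 0.20 SE, adjusted p = 0.106).

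Insulin and mTOR signalling genes had medians of 0.12 and 0.16, with 0 of 22 and 0 of 27 called. Irs2, an insulin receptor substrate, stood at 16.0 and 29.4 CPM in WT-CD and 54.9 and 89.0 in R403Q-CD (log2 1.67 ± 0.35 SE, adjusted p = 0.157, edgeR). Of the mTOR genes 9 were higher and 1 lower without overlap, against 16.8% and 17.1% of all genes. Of the 27 tested, 18 had a positive log2 difference. Among those higher without overlap were 3 genes singled out here because they are known to act with Fnip2 at the lysosome. They were picked from members already seen to be higher, and a joint change with Fnip2 was not tested. Flcn, which encodes folliculin, stood at 32.6 and 31.4 CPM against 57.4 and 39.1, Rragd, a Rag GTPase, at 24.2 and 36.3 against 47.6 and 43.3, and Rragc at 28.1 and 23.1 against 35.8 and 31.0. Their adjusted p lay between 0.471 and 0.712. Mtor stood at 61.6 and 94.0 CPM against 92.8 and 73.6 and overlapped.

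**Figure D3:**
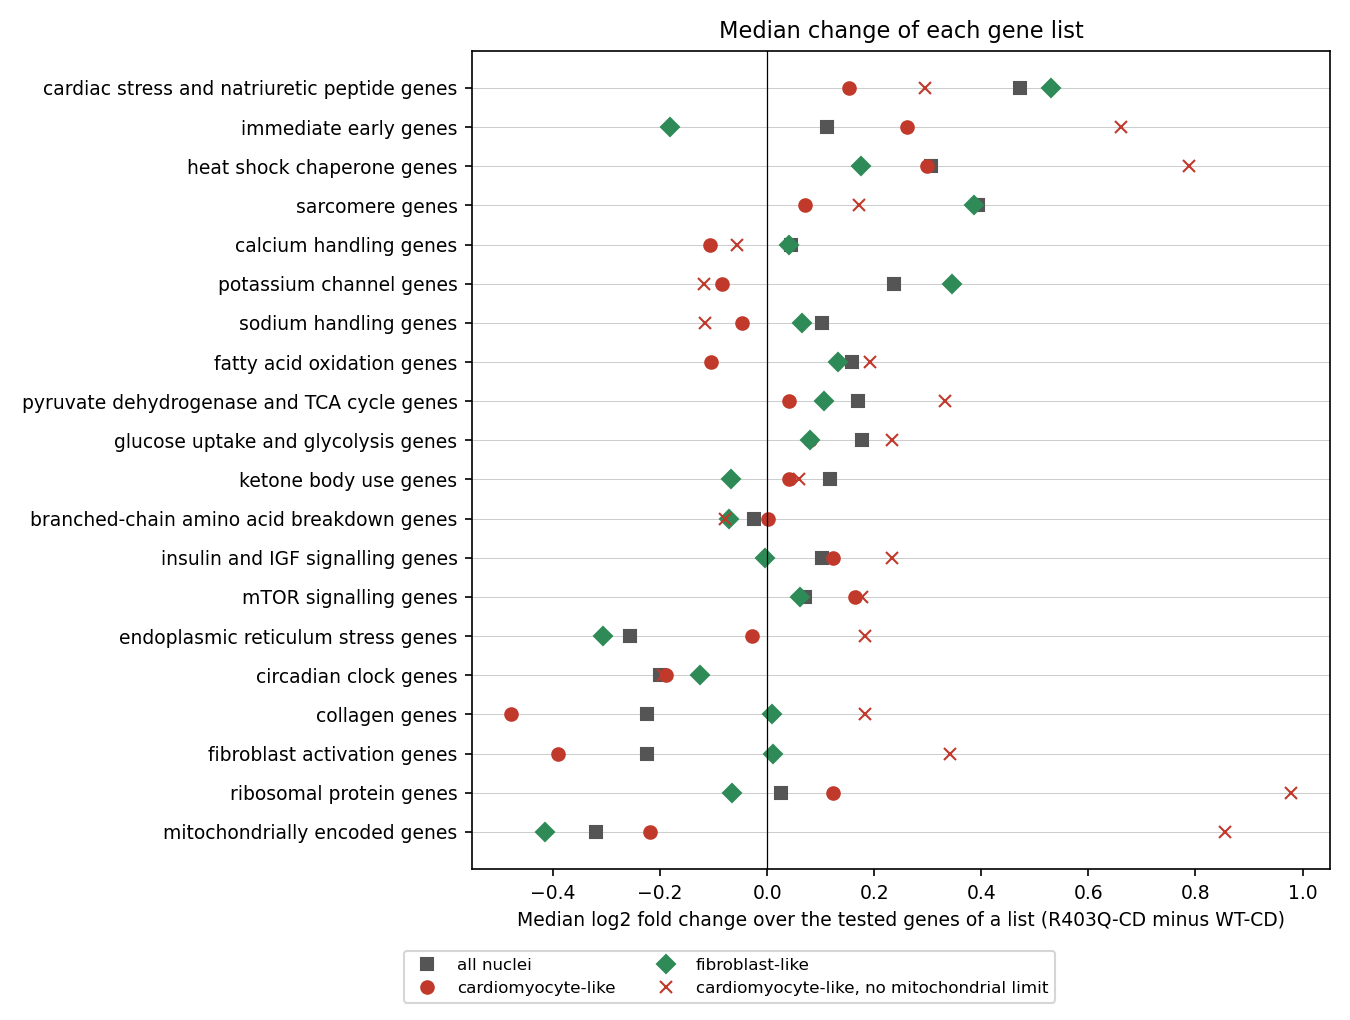
Median log2 difference (horizontal axis, R403Q-CD minus WT-CD) over the tested genes of 20 lists, for all nuclei, cardiomyocyte-like and fibroblast-like nuclei, and cardiomyocyte-like barcodes without the mitochondrial limit (crosses). Among the lists drawn, ribosomal protein genes have the highest cross, 0.98 without the limit against 0.12 with it.

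The difference between genotypes was then compared between cardiomyocyte-like and fibroblast-like nuclei of the same libraries. The interaction of class and genotype passed the edgeR test for 20 of 16424 genes (0.122%), 18 with the larger log2 difference in cardiomyocyte-like nuclei. They included 6 of the 14 genes called in cardiomyocyte-like nuclei, namely Fnip2, Adam19, Ttll7, Tmem178b, Atf3 and Pak5. Fnip2 had the smallest p, with a difference of log2 differences of 1.78 ± 0.16 (SE, adjusted p = 0.00402, edgeR), and in fibroblast-like nuclei it stood at 73.9 and 98.9 CPM in WT-CD and 80.2 and 84.9 in R403Q-CD. For Adam19, fibroblast-like nuclei stood at 218 and 215 CPM in WT-CD and 193 and 145 in R403Q-CD, opposite to cardiomyocyte-like nuclei. Atf3 lay between 1.43 and 2.18 CPM in fibroblast-like nuclei, and its interaction was 2.91 ± 0.38 (SE, adjusted p = 0.0208). Of the genes listed as immediate early, Jun also passed, with 0.99 ± 0.15 (SE, adjusted p = 0.0346). The other genes with a larger difference in cardiomyocyte-like nuclei included Slc24a2, Ugcg, Cd44 and Ugp2, and Spred2 was among those with a lower one, at -1.64 against -0.14 in fibroblast-like nuclei.

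**Figure D4:**
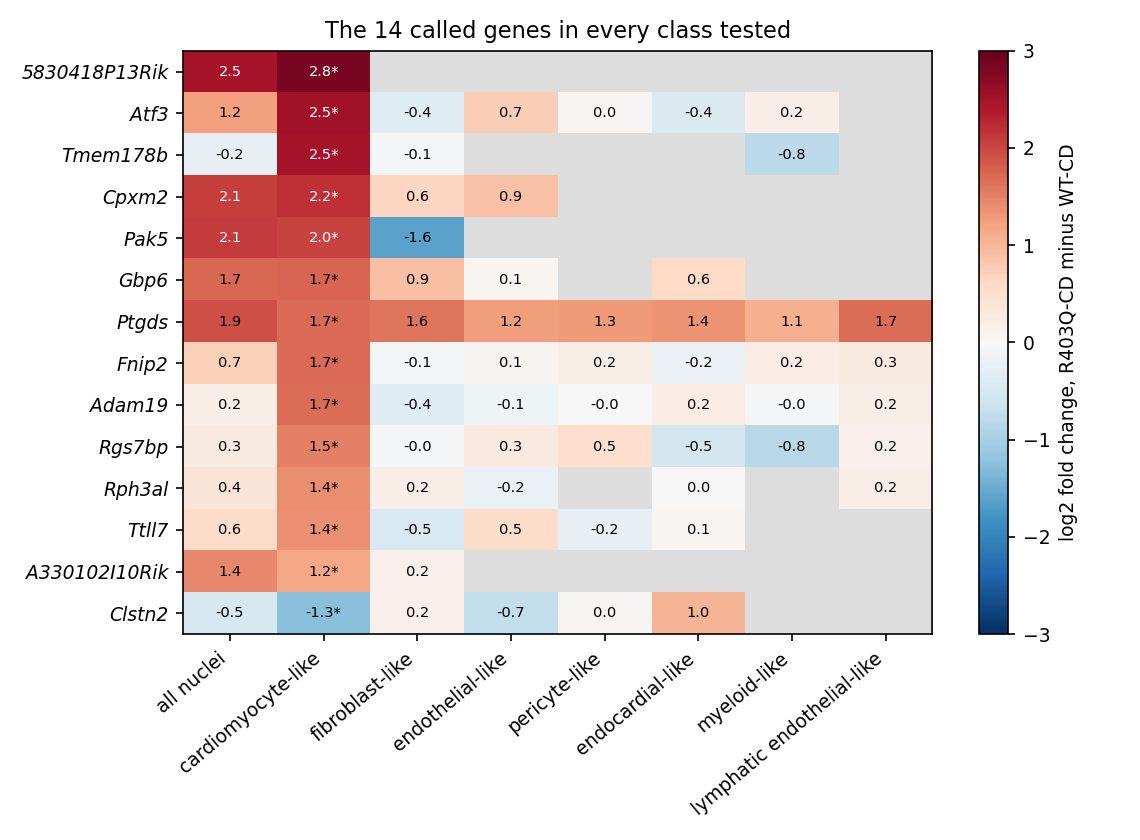
Log2 difference (colour and printed value, R403Q-CD minus WT-CD) of the 14 genes called in cardiomyocyte-like nuclei, in all nuclei and in each of the 7 classes tested. Asterisks mark an adjusted p under 0.05 and grey a gene not tested in that class. Ptgds is positive in every column, while Adam19 is 1.7 in cardiomyocyte-like and -0.4 in fibroblast-like nuclei.

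In fibroblast-like nuclei 0 of 15081 genes (0%) were called, 461 had an unadjusted p under 0.05 and DESeq2 called 9. Genes lay without overlap above the wild type in 14.6% and below it in 14.1%. The clusters within the class also differed in size, since the largest held 46.3% and 42.1% of fibroblast-like nuclei in WT-CD and 35.2% and 35.5% in R403Q-CD, and another held 22.05% and 27.1% against 32.6% and 33.9%. Their part in the values of this class was not tested. Rgs6, a brake on G protein signalling, stood at 120 and 127 CPM in WT-CD and 65.7 and 56.7 in R403Q-CD (log2 -1.01 ± 0.14 SE, adjusted p = 0.265, edgeR). Col4a6, a basement membrane collagen chain, stood at 41.9 and 45.9 CPM against 83.6 and 88.7 (log2 0.97 ± 0.14 SE, adjusted p = 0.265). Fetub and Ahsg, the plasma fetuins that the liver secretes, stood at 6.47 and 5.94 CPM against 16.9 and 18.0 and at 4.19 and 3.96 against 11.1 and 16.6. Mov10l1, a germline helicase, stood at 8.30 and 6.79 CPM against 1.76 and 1.82. Collagen and fibroblast activation genes had medians of 0.01 each in this class, with 0 of 28 and 0 of 24 called. Loxl2, which cross-links collagen, stood at 143 and 72.2 CPM against 64.3 and 61.5 (log2 -0.78 ± 0.30 SE, adjusted p = 1.00), and WT-CD replicate 1 stood apart.

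In endothelial-like nuclei 0 of 13979 genes (0%) were called, with 505 at an unadjusted p under 0.05 and 9 by DESeq2, and 15.7% and 14.5% of genes lay without overlap above and below WT-CD. Adam23, an integrin-binding adhesion protein, stood at 12.1 and 21.1 CPM in WT-CD and 45.2 and 50.7 in R403Q-CD (log2 1.49 ± 0.24 SE, adjusted p = 0.949, edgeR). Dlg2, a membrane scaffold, stood at 337 and 323 CPM against 595 and 540.3. Gm39465 stood at 12.3 and 16.5 CPM against 33.5 and 34.3. It is the leading marker of an endothelial-like cluster that held 28.1% and 31.8% of the class in WT-CD and 46.4% and 45.2% in R403Q-CD, while the largest cluster held 66.0% and 60.3% against 48.0% and 48.5%. The part of this difference in cluster make-up in the values of the class was not tested. The remaining 2 of the 5 smallest p-values belonged to Ptgds and to Nrap, a scaffold of striated muscle, which stood at 17.9 and 16.8 CPM against 34.0 and 33.8. Without WT-CD replicate 1, 7 genes were called.

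In myeloid-like nuclei 1 of 10822 genes (0.00924%) was called. Mamdc2, an extracellular matrix proteoglycan, stood at 43.2 and 42.8 CPM in WT-CD and 3.86 and 5.12 in R403Q-CD, 9.57 times as much in wild type (log2 -3.24 ± 0.36 SE, adjusted p = 0.0117, edgeR). Leaving out any of the 4 libraries lost the call of this gene, with adjusted p from 0.0943 to 0.431, and the UMIs behind it were 68 and 46 in WT-CD and 6 and 7 in R403Q-CD. Gas7 and the chemokine gene Ccl12 stood at 936 and 1156 against 593 and 493 CPM and at 119 and 94.9 against 38.6 and 33.6, and neither was called. Arid5b stood at 260.2 and 221 CPM in WT-CD and 499 and 385 in R403Q-CD.

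In lymphatic endothelial-like nuclei 0 of 8907 genes (0%) were called, with 288 at an unadjusted p under 0.05 and 0 by DESeq2. Ptn, the growth factor pleiotrophin, came closest at 72.8 and 69.2 CPM in WT-CD and 187 and 202 in R403Q-CD (log2 1.45 ± 0.22 SE, adjusted p = 0.0585, edgeR). Nrxn3 and Gpc6 were lower, at 262 and 289 against 129 and 158 CPM and at 65.6 and 65.6 against 23.4 and 28.4, and Stc1 and Dock8 were higher, all 4 at an adjusted p of 0.999. In pericyte-like nuclei 0 of 11954 genes (0%) were called, with 410 at an unadjusted p under 0.05 and 1 by DESeq2. Leaving out WT-CD replicate 1 or 2 gave 16 and 26 calls there, and 10 and 38 in lymphatic endothelial-like nuclei. In endocardial-like nuclei 0 of 11594 genes (0%) were called, with 415 at an unadjusted p under 0.05 and 0 by DESeq2. Slc7a2, a transporter of arginine and lysine, stood there at 74.6 and 76.6 CPM in WT-CD and 30.3 and 32.4 in R403Q-CD (log2 -1.26 ± 0.20 SE, adjusted p = 0.660, edgeR).

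In pericyte-like nuclei the gene with the smallest p was Ttn, the giant spring protein of the sarcomere, at 303 and 408 CPM in WT-CD and 761 and 717 in R403Q-CD (log2 1.06 ± 0.17 SE, adjusted p = 0.154, edgeR). Ryr2, the cardiac calcium release channel, stood at 64.7 and 89.7 CPM against 159 and 114. These are defining markers of cardiomyocytes. The 8 cardiomyocyte markers together made up 1309 to 1423 CPM of pericyte-like nuclei in WT-CD and 2095 to 2162 in R403Q-CD, with 6 of 8 markers higher without overlap, against 14.7% of all genes in this class. In fibroblast-like nuclei they made up 1066 to 1068 against 1594 to 1685 CPM, again with 6 of 8 higher, against 14.6% of all genes. Endothelial-like nuclei held 1585 to 1679 against 2323 to 2340 CPM. There 4 of 8 markers were higher and 1 lower without overlap, against 15.7% and 14.5% of all genes. Myeloid-like, endocardial-like and lymphatic endothelial-like nuclei had higher sums in both R403Q-CD libraries as well. In these classes 3, 5 and 5 of the 8 markers were higher without overlap. Among all genes tested there, 1891 of 10822, 1701 of 11594 and 1306 of 8907 were. In cardiomyocyte-like nuclei the same sum was 50879 and 72474 CPM in WT-CD and 66800 and 64695 in R403Q-CD, and the groups overlapped.

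**Figure D5:**
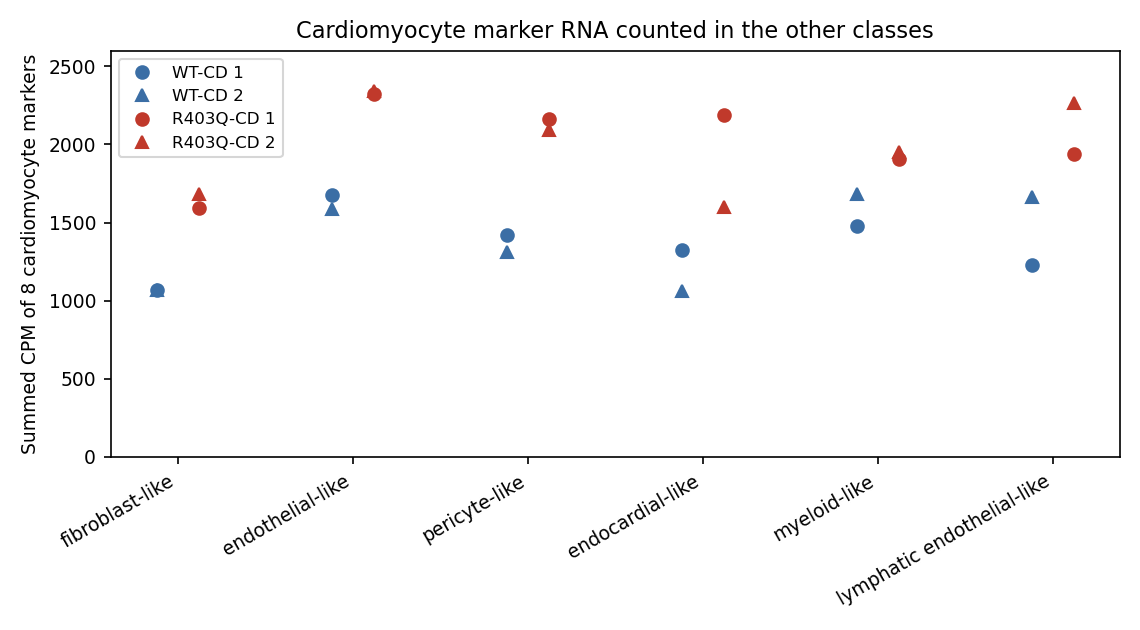
Summed CPM of the 8 cardiomyocyte markers (vertical axis) in each class other than cardiomyocytes, 1 point per library. In fibroblast-like nuclei the WT-CD libraries lie at 1068 and 1066 CPM and the R403Q-CD libraries at 1594 and 1685, and in all 6 classes both R403Q-CD points lie above both WT-CD points.

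Sarcomere genes had median log2 differences of 0.39 in fibroblast-like and 0.46 in endothelial-like nuclei, with all 20 positive in each, against 0.07 in cardiomyocyte-like nuclei. Over all nuclei their median was 0.39, with 16 of 20 higher and 1 lower without overlap, against 15.5% and 15.9% of all genes. Cardiomyocyte-like nuclei gave 26.9% and 25.0% of classed UMIs in WT-CD and 31.2% and 32.4% in R403Q-CD. Cardiac stress genes had medians of 0.53 and 0.64 in fibroblast-like and endothelial-like nuclei. Nppa stood at 11.6 and 8.59 CPM in fibroblast-like nuclei of WT-CD and 45.5 and 36.3 in those of R403Q-CD (log2 2.01 ± 0.60 SE, adjusted p = 1.00, edgeR). The part of cardiomyocyte RNA in these differences was not tested.

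Of 7981 genes tested in all 7 classes, 3 were higher without overlap in every class, namely Ptgds, Nppa and Ivns1abp, and 10 were lower, all of them mitochondrially encoded. The classes share libraries and are not independent. Ptgds lay between 1.06 and 1.70 log2 units above WT-CD in every class. In fibroblast-like nuclei it stood at 12.4 and 7.08 CPM in WT-CD and 31.1 and 28.5 in R403Q-CD, in the nuclei where the cardiomyocyte marker sum was also higher. Mitochondrially encoded genes had a median log2 difference of -0.22 in cardiomyocyte-like and -0.41 in fibroblast-like nuclei, with 0 of 13 called in either and 11 and 12 lower without overlap, against 17.1% and 14.1% of all genes. The limit that chose the nuclei was set on these transcripts, and its part in the differences was not tested. WT-CD replicate 1 held the most of them, and WT-CD replicate 2 also lay above both R403Q-CD libraries. Their summed levels in cardiomyocyte-like nuclei were 10756 and 10038 CPM in WT-CD against 8980 and 9523 in R403Q-CD.

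Circadian clock genes had a median log2 difference of -0.20 over all nuclei, with 0 of 19 called, 7 lower and 4 higher without overlap, against 15.9% and 15.5% of all genes. Nr1d1 and Dbp, which peak in the light phase in most mouse tissues, stood at 45.1 and 26.9 CPM in WT-CD against 18.2 and 21.3 in R403Q-CD and at 83.9 and 52.3 against 37.2 and 44.4. Arntl, Npas2 and Nfil3 were among the 4 that were higher without overlap, Npas2 at 19.6 and 29.96 CPM against 40.2 and 40.2. In both directions WT-CD replicate 1 was the extreme library, and the hour of sampling is not in the labels. Of 5 tested haemoglobin and other red blood cell genes 0 were called and 4 lay higher without overlap, with Hbb-bs at 391.97 and 267 CPM in WT-CD against 581 and 1170.2 in R403Q-CD, and replicate 2 of R403Q-CD held most. Ribosomal protein genes had a median of 0.03 over all nuclei with no gene of 32 outside the overlap.

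Usp9y, a deubiquitinase gene of the Y chromosome, stood at 1.41 and 1.22 CPM in WT-CD and 0.172 and 0.181 in R403Q-CD, from 53 and 45 UMIs against 6 and 7. The log2 difference was -2.87 ± 0.40 (SE, adjusted p = 0.217, edgeR). The other 4 Y-linked genes examined did not share it. Uty stood at 161 and 186 CPM against 188 and 189, Kdm5d at 40.8 and 47.2 against 46.5 and 48.4, Ddx3y at 62.5 and 70.4 against 66.3 and 68.8, and Eif2s3y at 106 and 101 against 107 and 106. The gene was singled out after its values were seen.

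Without the mitochondrial limit the cardiomyocyte-like comparison changed most. It then called 474 of 15098 genes (3.14%), 71 of them lower in R403Q-CD (0.47%) and the rest higher (2.67%), and these included all 14 of the genes called with the limit. Ribosomal protein genes made up 29 of them, of 32 tested, with a median log2 difference of 0.98 against 0.12 with the limit. Rps3 had a log2 difference of 1.34 ± 0.15 (SE). Heat shock chaperones gave 8 calls of 20, among them Cryab at 1.65 and Hspa8 at 1.24, and Nr4a3, Irs2, Nppa, Nppb, Acta1 and Kcnc1 were called as higher. Of the fatty acid oxidation genes Acadvl, Etfb and Fabp3 were called as higher and Cpt1a as lower, and of the glycolysis genes Aldoa, Gapdh, Ldha and Pgam2 as higher and Pfkfb1 as lower. Pyruvate dehydrogenase and TCA cycle genes gave 6 calls of 30, all higher, and Cacna1g was called as lower. Mitochondrially encoded genes turned from a median of -0.22 to 0.86. Ribosomal protein messages are mainly cytoplasmic. The added barcodes had medians of 715.5 to 902 UMIs, and their part in these calls was not separated from that of the nuclei.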

How the data were processed

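Single-nucleus RNA was measured in left ventricle. The authors deposited, per library, a matrix of raw UMI counts per gene and barcode, made with Cell Ranger 8.0.1 on GRCm39 per the submitters' processing notes. Promoters are from RefSeq on GRCm38.p6.

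Predicted doublets (scrublet in scanpy 1.11.5, 4.70% to 6.45% of nuclei) were removed before clustering and class sums but kept in the all-nuclei sums. Clusters (2000 variable genes, 30 principal components, 15 neighbours, Leiden resolution 1) were named when at least 3 markers were at least 2-fold enriched and seen in at least 10% of nuclei. Classes with at least 100 nuclei in every library were tested. Sums were filtered (filterByExpr), scaled by TMM and tested with edgeR 4.0.16 in R 4.3.3 over all 6 libraries (residual degrees of freedom, 3), with Benjamini-Hochberg adjustment within each class. The interaction fit had library as a block. CPM are TMM-scaled. The test code was also run on simulated counts that gave all libraries a common profile apart from planted changes. Such counts hold no differences in class make-up or library quality, so that run is no support for the calls here.

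Named genes were the called genes with the 10 largest and 10 smallest log2 differences, without overlap between the groups and with a mean of at least 5 CPM, or the 5 smallest p where fewer than 5 genes were called. Members of 27 gene lists could be named too. Some genes that this rule names are not reported here. The comparison, markers and lists were chosen with earlier results of these data known. Alternatives were DESeq2 1.42.0, RLE scaling, no filter, other barcode limits, doublets treated the other way, a Leiden resolution of 2, equal class weights in every library, the 4 libraries alone and each library left out.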

Additional observations from a re-analysis of the deposited data

Results flagged for a closer look

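The log2 difference between genotypes was not the same in cardiomyocyte-like and fibroblast-like nuclei by the edgeR test of the interaction. The difference of log2 differences was 1.78 for Fnip2, 2.11 for Adam19, 1.85 for Ttll7, 2.55 for Tmem178b, 2.91 for Atf3, 3.66 for Pak5 and 0.99 for Jun. It was 2.05 for Slc24a2, 1.28 for Ugcg, 1.36 for Cd44 and 1.10 for Ugp2, and it was -1.45 for Spred2. For Pak5 the fibroblast-like side rests on less than 1.40 CPM in every library.

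Barcodes over the mitochondrial limit, which the comparisons of kept nuclei leave out, held 68.7% and 70.7% of cardiomyocyte-like barcodes in R403Q-CD, above the 18.5% and 49.2% of WT-CD.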

How the results depend on the processing

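Results rest on 2 libraries a group, and WT-CD replicate 1 had the lowest median UMI per nucleus of the 4 libraries compared. No paired analysis was possible because the replicate numbers follow accession order and pair no samples. Where a library was left out, the lone sample of its group was assumed to vary like the other groups.

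Over all nuclei the count of 0 called genes became 65 with DESeq2, 28 without the filter, 71 without the mitochondrial limit, 1 with the 4 libraries alone and 0 to 1 with a library left out. The 14 calls in cardiomyocyte-like nuclei became 98 with DESeq2, 315 without the filter, 474 without the mitochondrial limit, 22 without the cluster of low depth, 27 without the smallest cluster (both chosen after seeing the data) and 0 to 58 with a library left out. Fibroblast-like nuclei had 9 with DESeq2 and 101 without the filter. Endothelial-like nuclei had 9, 74, and 0 to 7 with a library left out. Pericyte-like nuclei had 1, 18, 1 with the 4 libraries alone, and 0 to 26. Endocardial-like nuclei had 49 without the filter and 0 to 2. Myeloid-like nuclei had 2 with DESeq2, 42 without the filter and 0 to 1. Lymphatic endothelial-like nuclei had 5 without the filter, 1 without the mitochondrial limit, 5 with doublets kept and 0 to 38. More genes were tested without the filter and fewer samples with a library left out, and the cause of the other changes was not tested.

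Without the mitochondrial limit the share differences were 17.7 points for cardiomyocyte-like, -9.68 for fibroblast-like, -0.530 for endothelial-like, -4.02 for pericyte-like and -0.156 for lymphoid-like barcodes, the last against 0.491 with the limit. In cardiomyocyte-like nuclei the log2 differences of Myh7 and Ankrd1 turned to 0.22 and 0.29 without that limit. With a library left out, Myh7 ranged from -0.26 to 0.050 (without WT-CD replicate 1), Myh6 from -0.16 (without WT-CD replicate 1) to 0.34, and Ankrd1 from -0.75 to 0.19, above 0 without WT-CD replicate 1 and without R403Q-CD replicate 1 (0.14). With a library left out, differences ranged from 1.64 to 4.14 points for cardiomyocyte-like, -8.76 to -3.89 for fibroblast-like, -0.159 to 12.5 for endothelial-like, -3.14 to -1.36 for pericyte-like and 0.391 to 0.592 for lymphoid-like nuclei. Of 1143 values for 81 results of single genes, 950 kept direction and side of the threshold, 46 lost a call, 133 gained one and 6 changed sign, those of Myh7, Myh6 and Ankrd1 above. The remaining 8, over all nuclei with each class given the same weight in every library, kept their sign but moved by more than the spread between libraries. Besides those in the report they included Usp9y at -3.05, Myh6 at 0.13 and Ptgds at 1.66.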
